A study of Rattus norvegicus with 16 samples.

Results

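The comparison described here set kidney cortex of BRCA1+/- rats given ferric nitrilotriacetate (Fe-NTA) for 3 weeks against normal kidney cortex of rats with the same genotype. Its members were taken from the sample titles: 3 arrays of treated cortex and 2 arrays of control cortex, which together are 5 of the 16 arrays in the series. All rats were males of the Jcl:SD strain, an outbred Sprague-Dawley stock, and every animal in both groups carried the heterozygous BRCA1 genotype. The labels do not say which part of the gene is altered. Treated animals received intraperitoneal injections from 4 weeks of age. The dose was 5 mg iron/kg at injections 1 and 2, then 7 mg iron/kg for the remaining 3 of that week. In each of the next 2 weeks, 10 mg iron/kg was injected 5 times, and the cortex was removed 48 h after the last dose. The labels give neither the age of the control rats nor any sham injection, so the effect of Fe-NTA and that of age or handling cannot be told apart. The study enrolled 17 wild-type and 18 BRCA1+/- rats at the start and hybridised 8 arrays for each genotype. Beside the 5 arrays, the text uses BRCA1+/- cortex after 1 week of Fe-NTA (3 arrays, the first-week doses only) and wild-type Jcl:SD cortex after 3 weeks of Fe-NTA (3 arrays, the full schedule) or untreated (2 arrays). Nothing in the labels says whether each array stands for a separate animal, so the p-values measure the spread between these samples, which may be partly technical.

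Fe-NTA is an iron chelate that is filtered by the glomerulus and releases catalytically active iron in the lumen of the proximal tubule, where it drives the Fenton reaction and lipid peroxidation. Repeated dosing is a standard model of oxidative kidney injury and, over months, of renal cell carcinoma in rodents. The proximal tubule reabsorbs most of the filtered solute, burns fatty acids as its main fuel and carries a large set of detoxifying enzymes. After injury its surviving cells are known to lose that equipment, switch on secreted injury proteins and signal to fibroblasts and macrophages around them. BRCA1 acts in homologous recombination, the error-free repair of DNA double-strand breaks, and in heterozygous animals 1 allele is intact.

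The arrays were one-colour Agilent whole rat genome arrays with 62976 spots, of which 4259 were controls. Levels are log2 signals minus the 75th percentile of the same array, so a level of 0 is brighter than 75% of the probes on that array. Between 40.8% and 48.8% of probes were well above background on the 5 arrays, and no spot was saturated. The correlation of gene levels over the 16007 genes tested was 0.974 between the control arrays, 0.966 to 0.98 among the treated arrays and 0.892 to 0.916 between the groups. Control 1 shared slide 1 with treated 3, and control 2 shared slide 2 with treated 1 and 2. The tissue label was borne out by its defining genes: the proximal tubule phosphate transporter Slc34a1, the thick limb protein Umod, the collecting duct water channel Aqp2 and the podocyte protein Nphs1 were well above background on all 5 arrays. Of 32 markers of resident, immune, blood and neighbouring tissue cells, 25 were tested. Col1a1, Cd68 and C1qa rose, and Slc22a6, Slc4a1 and Hbb were among those that fell. The B cell marker Cd79a, the neutrophil marker S100a8, the adrenal markers Cyp11b1 and Star and the adipocyte marker Plin1 were not well above background on any of the 5 arrays. In whole tissue, fewer cells of a type and less RNA per cell cannot be told apart.

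Brca1 itself was read first. Its level was -0.04 and -3.44 on the control arrays and -0.65, -1.19 and -0.81 on the treated arrays, so the control arrays lay on either side of all treated ones. The second control array was below the background limit and the other 4 were above it. The fitted difference was 0.86 ± 0.74 (SE; adjusted p = 0.42), and leaving out 1 control array changed it to 2.56 (adjusted p = 0.029, without control 1) or -0.84 (without control 2). Whether the probe lies in the altered part of the gene is unknown here, so these levels check nothing about the genotype labels.

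After 3 weeks of Fe-NTA, 2538 of 16007 genes differed from BRCA1+/- control cortex at an adjusted p under 0.05 in limma, which is 15.9% of the genes tested. Of these 1494 were higher (9.33%) and 1044 lower (6.52%), and 1341 of the rises and 885 of the falls were over 2-fold. The median over all genes was 0.01 on the log2 scale and the median absolute difference 0.55. Treated and control levels did not overlap for 61% of all genes, so lack of overlap alone says little about any one of them. The count rests on the arrays used: it was 812 without control 1, 965 without control 2, 1277 without treated 3, and 4717 without the third wild-type 1-week array, which takes no part in the contrast but lends its spread to the fit. With slide as a block the count was 2639. Within slide 1 (1 array a group) it was 251, and within slide 2 (1 control, 2 treated) it was 279.

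The 12 largest rises were led by secreted or surface proteins of the injured tubule. Spp1 encodes osteopontin, a secreted phosphoprotein that binds integrins and CD44. Its level was 1.52 and 1.74 in controls and 9.27, 9.41 and 9.36 after Fe-NTA, a rise of 7.72 ± 0.43 (SE) on the log2 scale, or 211-fold (adjusted p = 8e-08). Lcn2 encodes neutrophil gelatinase-associated lipocalin, which binds bacterial iron-carrying siderophores and is a urinary marker of tubular injury. It stood at -1.59 and -1.85 in controls and at 5.26, 4.65 and 4.02 in treated cortex, 82.3-fold higher (adjusted p = 8.9e-06). For both genes every treated array lay above every control array by far more than the arrays of a group differed. Several others were not well above background on any control array, and for these only a lower bound can be given, set against each array's detection limit. Havcr1 encodes kidney injury molecule 1, a phagocytic receptor of injured proximal tubule cells. It was below the limit on both control arrays, read 3.03, 2.55 and 3.33 in treated cortex and was at least 40.8-fold higher (adjusted p = 5.4e-07). By the same measure the carboxylesterase Ces1a was at least 49.3-fold higher, the protease inhibitor Serpina10 at least 49.4-fold, the cytokine Il24 at least 43.7-fold, the adrenergic receptor Adra1d at least 52.6-fold, the drug efflux pump Abcb1b at least 51.4-fold and the matrix protease Mmp7 at least 19.5-fold.

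Car3, a carbonic anhydrase, rose from 0 and -1.51 to 5.81, 5.36 and 6.93, which is 110-fold. A second Car3 probe rose by 3.66. Fst encodes follistatin, a secreted antagonist of activins. It rose from -2.43 and -2.94 to 3.49, 3.23 and 3.44, a difference of 6.07 ± 0.33 (SE), with a second probe at 3.53. Serpina3n, an acute-phase protease inhibitor, was uneven: the treated arrays read 1.5, 1.55 and 5.85 against -3.49 and -4.29 in controls. A second Serpina3n probe differed by only 0.09, so its rise (6.86 ± 1.36; adjusted p = 0.0043) rests on 1 of 2 probes. Without treated 3 the rise was 5.42 (adjusted p = 0.015). The call was lost under normexp background correction (3.19; adjusted p = 0.082) and under the stricter filter on dim probes, which left the other probe (0.09; adjusted p = 0.9). Abcb1b also had probes of unequal size, at 3.1 and 6.12.

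**Figure D1:**
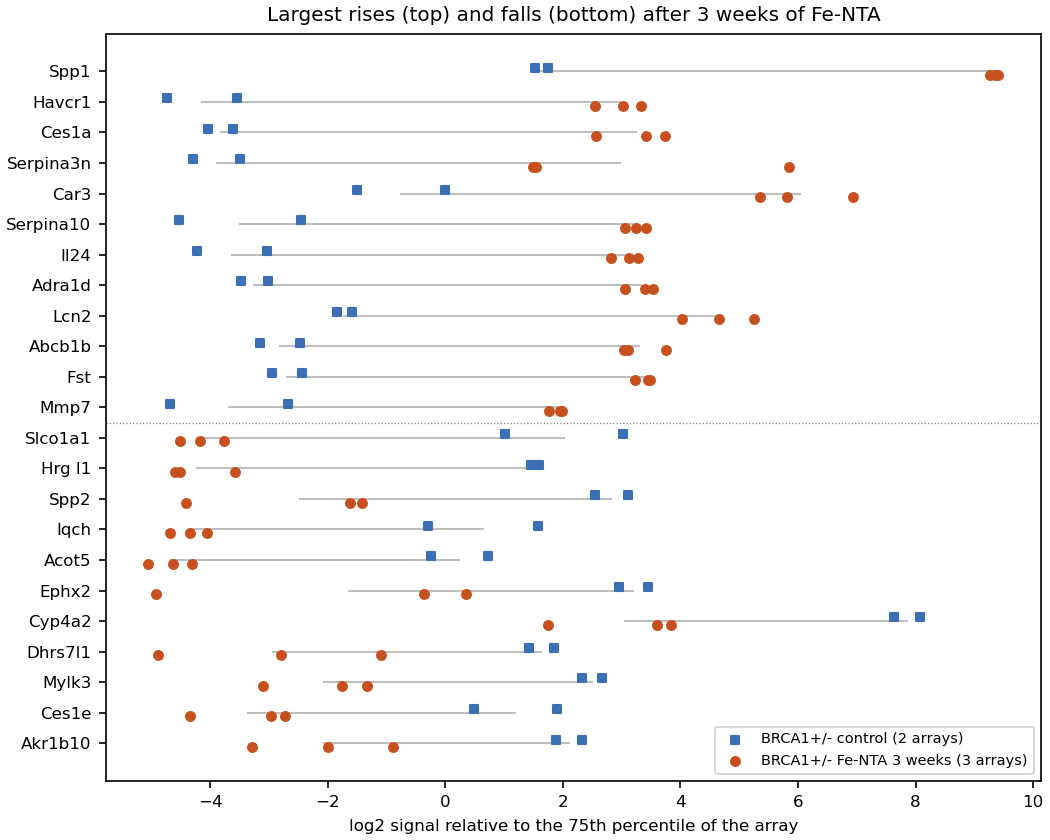
Level of each of the 12 genes with the largest rises (upper block) and 11 with the largest falls (lower block) on each array, as log2 signal relative to the array's 75th percentile (x axis). Squares are the 2 BRCA1+/- control arrays, circles the 3 arrays after 3 weeks of Fe-NTA, and grey lines join the group means. Spp1 moved from below 2 to above 9, while Serpina3n and Ephx2 each have 1 treated array far from the others.

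The largest falls were led by transporters and enzymes of the proximal tubule. Slco1a1, an organic anion transporter, read 1.02 and 3.03 in controls, was not well above background on any treated array and was at least 23.7-fold lower (adjusted p = 6.6e-05). A histidine-rich glycoprotein-like gene listed as Hrg l1 was at least 16.7-fold lower, Iqch at least 9.06-fold, the peroxisomal thioesterase Acot5 at least 6.87-fold and the carboxylesterase Ces1e at least 13.3-fold. Iqch was above background on all arrays of no group but the BRCA1+/- control one. It entered the test only through the group where it is high, and its call is a description. Cyp4a2, a fatty acid omega-hydroxylase, was bright in controls at 7.64 and 8.07 and stood at 3.84, 3.6 and 1.75 after Fe-NTA, a fall to 1 part in 27.6 (adjusted p = 0.00088). On the log2 scale, the secreted phosphoprotein Spp2 (-5.31), the short-chain dehydrogenase Dhrs7l1 (-4.57), the kinase Mylk3 (-4.55) and the aldo-keto reductase Akr1b10 (-4.17) also fell. Ephx2 encodes the soluble epoxide hydrolase and read 0.36, -0.36 and -4.93 in treated cortex against 3.45 and 2.95 in controls. Its call (difference -4.85 ± 1.39; adjusted p = 0.03) was lost without treated 3, when the difference was -3.2 (adjusted p = 0.1), and also without control 1 (0.16) or control 2 (0.12). The Ces1, Cyp4a, Akr1, Gsta, complement C4 and globin genes have close copies in the genome, and their probes may read more than 1 copy.

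Genes of tubular injury and repair rose as a group. Of 36 tested members 29 rose (80.6%) and 1 fell, with a median difference of 2.46 against 0.01 over all genes, and the medians of the 3 treated arrays were 2.54, 2.41 and 2.5. Beside Spp1, Havcr1, Lcn2, Fst and Il24, the risers include Clu (4.67), a secreted chaperone, Cd44 (4.51), the hyaluronan receptor, Vim (3.37), the filament protein of dedifferentiated cells, and the annexins Anxa1, Anxa2, Anxa3 and Anxa5 (2.29 to 2.97). The exception was Tff3, a secreted trefoil peptide, which fell by 3.28 (adjusted p = 0.019) and was not called without control 2. Without control 1 the rises numbered 20. Sox9, a factor of regenerating tubule cells, differed by 0.32 and Krt7 by -0.13, and neither was called, although other probes of these genes reached 2.66 and 1.17. Mmp7, matrilysin, is another member, and the window around its RefSeq start holds 1 AP-1 letter run.

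**Figure D2:**
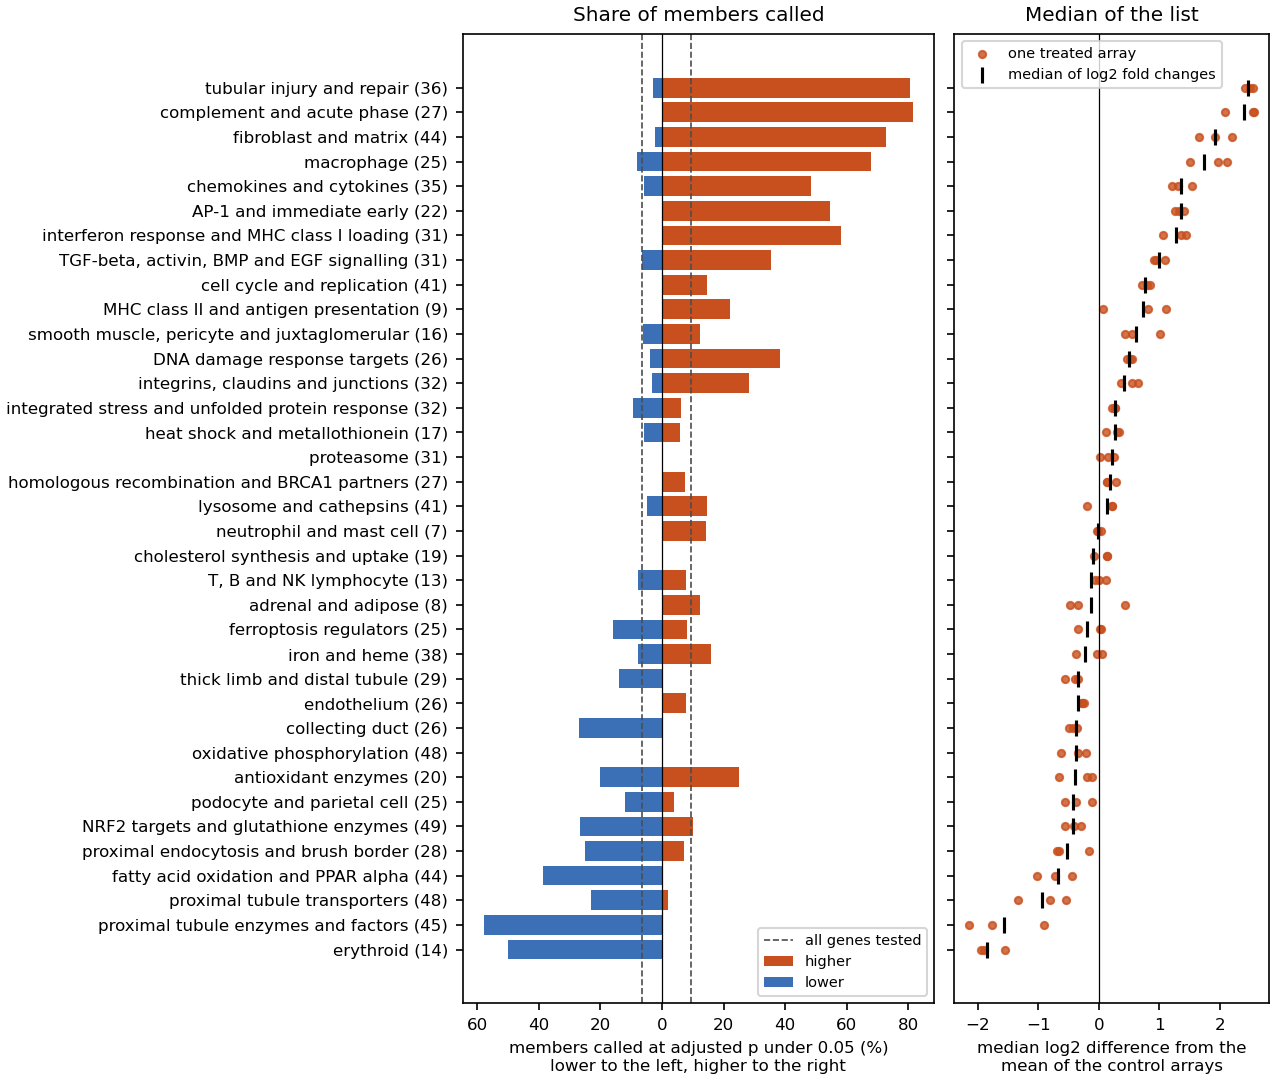
Left, share of the tested members of each of 36 gene lists called higher (orange, to the right) or lower (blue, to the left) after 3 weeks of Fe-NTA at an adjusted p under 0.05, with the number tested in brackets and dashed lines at the shares over all genes (9.33% and 6.52%). Right, the list's median log2 difference from the control mean on each treated array (circles) and the median of the fitted differences (bars). Injury, complement, matrix and macrophage lists have medians from 1.73 to 2.46, and the erythroid and proximal enzyme lists lie at -1.85 and -1.56.

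Enzymes and transporters of the proximal tubule fell. Among 45 enzymes and factors of the segment 26 fell (57.8%) and none rose, with a median of -1.56 and treated-array medians of -2.15, -0.9 and -1.76. Cyp4a3, a second omega-hydroxylase, dropped from 7.69 and 7.91 to 4.63, 5.58 and 4.39, or 7.65-fold (adjusted p = 0.00036), and the glucosidase Gba3 from 4.28 and 3.9 to 0, 1.54 and 0.57, or 10.5-fold. Also lower were Miox (-3.85), which opens the inositol ring, the glucose-releasing enzyme G6pc1 (-2.86), the dopamine-forming enzyme Ddc (-2.87) and Kap (-2.42), an androgen-regulated kidney protein. The regulator Hnf4a differed by -0.52 and was not called, whereas Hnf4g fell by 1.56. The fall count was 12 without control 1, 16 without control 2 and 17 without treated 3.

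Of 48 transporters of the segment 11 fell (22.9%, against 6.52% over all genes) and 1 rose (2.1%, against 9.33%), with a median of -0.93. Slc7a13, a cystine and aspartate carrier, read 1.01 and 3.39 in controls and -2.3, -0.82 and -2.43 in treated cortex (-4.05 ± 0.71 SE; adjusted p = 0.002). Slc6a19 takes up neutral amino acids and fell from 1 and 0.35 to -2.87, -3.07 and -1.63 (adjusted p = 0.002). The organic anion uptake carrier Slc22a6 read 8.89 and 7.92 in controls and 5.1, 7.15 and 6.07 after Fe-NTA (adjusted p = 0.01). The glucose exit carrier Slc2a2 rose by 1.36 and was not called without control 2. The sodium-glucose carrier Slc5a2 (-0.48), the phosphate carrier Slc34a1 (-1.42) and the water channel Aqp1 (-0.15) were not called. Slc5a2 was the most uneven of these, at 3.94, 6.08 and 6.82 on the treated arrays against 6.47 and 5.72 in controls. The fall count was 4 without control 1, 5 without control 2, 6 without treated 1, 7 without treated 3 and 18 without the third wild-type 1-week array.

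Among 28 genes of endocytosis and the brush border, 7 fell (25%, against 6.52% over all genes) and 2 rose (7.1%, against 9.33%). The median was -0.52. The brush border peptidase Xpnpep2 fell by 1.74 (adjusted p = 0.0063) and the aminoacylases Acy1 and Acy3 by 1.33 and 1.68. The endocytic receptors Lrp2 (-0.78) and Cubn (0.62), which retrieve filtered proteins, were not called. Xpnpep2 missed the threshold without control 1 (adjusted p = 0.063), Acy1 without control 2 (0.13), and Acy3 without control 2 (0.16) or treated 3 (0.068). Leaving out 1 array took the fall count to 2 (either control) or 3 (treated 1 or 3). The rises, the peptidase Ace (1.08) and the trehalose-splitting enzyme Treh (1.65), were not called without control 1.

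Peroxisomal and mitochondrial fatty acid oxidation moved with these enzymes. Of 44 genes, 17 fell (38.6%) and none rose, with a median of -0.68. They include Ppara (-1.66), the lipid-sensing receptor that switches on this programme, the peroxisomal enzymes Ehhadh (-2.69) and Acaa1a (-1.2) and the mitochondrial enzymes Acaa2 (-1.8) and Acadm (-1.25). Cyp4a2 and Cyp4a3 belong to this list as well as to the enzyme list, so the counts are not separate. The carnitine step enzymes Cpt1a (0.07) and Cpt2 (-0.4) and the fatty acid receptor Cd36 (0.07) were not called. The count was 5 without control 1, 10 without control 2, 11 without treated 1 and 9 without treated 3. Among 48 subunits of oxidative phosphorylation, by contrast, limma called none at an adjusted p under 0.05, although 45 of the 48 were lower. Their median was -0.38. The unadjusted limma p was under 0.05 for 8 of them, against 5356 of the 16007 genes tested. The subunit with the smallest p, Uqcrfs1, read 3.39 and 3.59 in controls and 2.62, 2.97 and 2.69 in treated cortex (adjusted p = 0.071). Without the third wild-type 1-week array 8 subunits were called lower. No gene of cholesterol synthesis and uptake was called by limma either, with 3 of 19 at an unadjusted p under 0.05 and a median of -0.09.

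**Figure D3:**
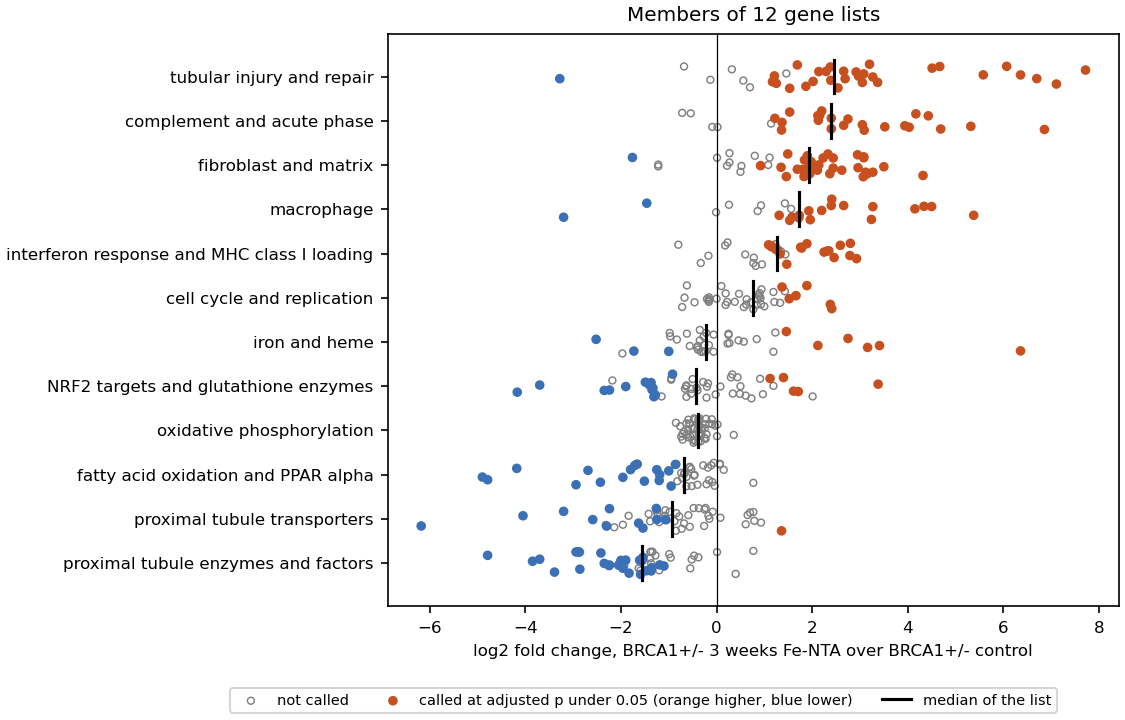
Log2 fold change of each tested member of 12 gene lists, treated over control (x axis). Filled circles were called at an adjusted p under 0.05 (orange higher, blue lower), open circles were not, and black bars mark the list's median. Oxidative phosphorylation is a narrow cloud with a median of -0.38 and no call, while proximal enzymes reach -4.79.

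The iron and heme genes did not move one way. Of 38, 6 rose (15.8%, against 9.33% over all genes) and 3 fell (7.9%, against 6.52%), with a median of -0.22. Lcn2 was the largest rise. Cybrd1, a ferric reductase, rose from -1.28 and -1.2 to 0.67, 0.65 and 1.31 (adjusted p = 0.00083). Transferrin (Tf), the iron carrier of plasma, rose from -0.85 and -0.41 to 3.57, 2.81 and 1.96 (adjusted p = 0.0014), and the plasma ferroxidase Cp by 2.75. The falls were the metal carrier Slc39a8 (-2.52), the transferrin receptor Tfrc (-1.73) and the iron-sulfur scaffold Iscu (-1). Tfrc messenger is degraded when cellular iron is high. It read -0.42 and -0.79 in controls and -2.19, -2.25 and -2.55 in treated cortex (adjusted p = 0.022), and it missed the threshold without control 1 (0.15), control 2 (0.081) or treated 3 (0.072). Tfrc is also abundant in young red cells, and the erythroid list fell too, as given below. What cellular iron and red cell content contribute to the fall of Tfrc was not tested. The iron store subunits Fth1 (-0.41) and Ftl1 (-0.83), the exporter Slc40a1 (0.23) and the heme-degrading enzyme Hmox1 (1.19), the usual marker of heme and oxidative stress, were not called. The fall count of this list was 1 without control 1, control 2 or treated 3, and 6 without the third wild-type 1-week array.

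Genes of the NRF2 programme, the main transcriptional response to electrophiles, and the glutathione enzymes fell more often than they rose. Of 49, 13 fell (26.5%, against 6.52% over all genes), 5 rose (10.2%, against 9.33%) and the median was -0.42. Gpx2, a glutathione peroxidase of epithelia, read 2.22 and 2.29 in controls and 5.61, 5.36 and 5.92 in treated cortex, 10.4-fold higher (adjusted p = 0.0012). Srxn1 restores oxidised peroxiredoxins and rose 3.27-fold. Gstm5, Cbr1 and Gstm1 were the other rises. The alpha class transferases Gsta1, Gsta2 and Gsta5, abundant in proximal tubule, fell by 3.7, 1.9 and 2.24, and so did Gsr (-1.35), which reduces glutathione, and Txnrd1 (-1.33). Gsta1, Gsta2 and Gsta5 also stand in the proximal enzyme list. The textbook targets Nqo1 (0.44) and Gclc (-2.18) were not called. The falls numbered 7 without control 1, treated 1 or treated 3, and the rises 2 without either control, 3 without treated 3 and 8 without the third wild-type 1-week array. Among 20 antioxidant enzymes, 5 rose (25%, against 9.33% over all genes) and 4 fell (20%, against 6.52%). Catalase (Cat, -1.72), Gpx3 (-2.21) and Sod1 (-1.02) fell together with Msra (-1.8), which repairs oxidised methionine. The glutaredoxin Glrx rose from -0.2 and -0.17 to 0.84, 1.03 and 1.21 (adjusted p = 0.0028), and Gpx8 by 1.76, with Gpx7, Prdx4 and Sod3 also higher. Without control 2, only 1 of the 5 rises and 1 of the 4 falls were called, and Gpx8 (0.065) and Msra (0.086) were not. Without control 1, 2 rises and 1 fall remained in the count. Of 25 ferroptosis regulators, 2 rose (8%, against 9.33% over all genes) and 4 fell (16%, against 6.52%). Cbs, which makes cysteine precursors, fell by 2.27, Ptgs2 by 2.19 and the cysteine desulfurase Nfs1 by 1.34, while the lipid peroxidase Gpx4 differed by -0.26 and was not called. Without control 1 Ptgs2 (0.053) and Nfs1 (0.067) missed the threshold, and Nfs1 also without control 2 (0.069). The falls of the list then numbered 1 without control 1 and 2 without control 2, and the rises (Hspb1 and Cybb in the fit with all arrays) numbered 0 without control 2, at most 1 without any other of the 5 arrays and 4 without the third wild-type 1-week array.

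Heat shock proteins and metallothioneins changed little, with 1 of 17 called in each direction (5.9%, against 9.33% higher and 6.52% lower over all genes). Mt1 binds zinc and copper. It was bright at 9.04 and 8.23 in controls and stood at 7.47, 7.07 and 7.36 after Fe-NTA (adjusted p = 0.037), and the chaperone Hspb1 rose by 0.82 (adjusted p = 0.028). Both calls were lost without control 1 (0.28 for Mt1, 0.22 for Hspb1). Mt1 was lost without each of the 5 arrays in turn, and Hspb1 when any array other than treated 1 was left out. Of 31 proteasome subunits limma called none, and their median was 0.21. The unadjusted p was under 0.05 for 2 of them, against 5356 of the 16007 genes tested. The smallest p was that of Psmd3 at -0.84 (adjusted p = 0.064), which was called without the third wild-type 1-week array (0.028). In the integrated stress and unfolded protein lists 2 of 32 rose (6.2%, against 9.33% over all genes) and 3 fell (9.4%, against 6.52%). Atf3, a stress-induced transcription factor, was at least 12.3-fold higher, and asparagine synthetase (Asns) rose by 1.69, while the serine synthesis enzyme Psat1 fell from 5.76 and 5.49 to 2.78, 3.61 and 4.3 (adjusted p = 0.0064). The chaperone Hspa5 (0.46) and the effector Ddit3 (0.09) were not called. Asns missed the threshold without control 2 (0.096) and Psat1 without control 1 (0.068). The falls numbered 0 without control 1, 1 without control 2, treated 1 or treated 3, and 5 without the third wild-type 1-week array.

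Extracellular matrix and fibroblast genes rose widely: 32 of 44 were higher (72.7%), 1 was lower and the median was 1.92. Fn1, fibronectin, read -0.88 and -1.03 in controls and 3.2, 2.65 and 4.25 in treated cortex, 20-fold higher (adjusted p = 6.3e-05). Adamts1, a secreted metalloprotease, rose from 0.65 and 0.52 to 4.31, 3.61 and 4.34 (11.3-fold), and the matrix glycoprotein Fbln1 8.47-fold. The fibrillar collagens Col1a1 (2.44), Col1a2 (1.98) and Col3a1 (2.11) and the crosslinking enzymes Lox (2.95), Loxl1 (3.07) and Loxl2 (1.84) were among the risers. The exception was Igfbp3, a binding protein of insulin-like growth factors, which fell by 1.76. The pericyte and fibroblast receptor Pdgfrb rose by 0.92 (adjusted p = 0.046) and missed the threshold without either control (0.25 and 0.12), treated 1 (0.13) or treated 3 (0.15). The fibroblast receptor Pdgfra (0.27), the myofibroblast actin Acta2 (0.5) and Ccn2 (0.22) were not called. Without control 1 the number of rises was 21. The list's summed signal was 221 to 275 in controls and 688 to 995 in treated cortex, in units of the arrays' 75th percentile.

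Of 31 genes of TGF-beta, activin, BMP and EGF signalling 11 rose (35.5%, against 9.33% over all genes) and 2 fell (6.5%, against 6.52%). The median was 1. Among the ligands, Tgfb2 rose from 0.37 and -1.69 to 3.41, 2.99 and 4.04, or 17.6-fold (adjusted p = 0.00034), although its probes ranged from 1.51 to 4.14. The activin subunits Inhba and Inhbb rose by 2.8 and 2.12, alongside their antagonist Fst. Ltbp2, a latent TGF-beta binding protein of the matrix, was at least 9.68-fold higher. Egf, made by the thick limb and distal tubule, fell by 2.27 and Tgfa by 0.85, whereas the receptors Tgfbr1 (0.58), Tgfbr2 (0.13) and Egfr (1.06) were not called. Without control 1 or control 2 the rises numbered 7, and neither Egf nor Tgfa was called when any of the 5 arrays was left out.

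Immediate early genes and AP-1 members respond within minutes to stress and growth signals. They rose in 12 of 22 cases (54.5%, against 9.33% over all genes), with none lower (median 1.36). Egr1 read -2.14 and -2.01 in controls and 1.44, 1.16 and 1.15 in treated cortex, 10-fold higher (adjusted p = 0.00021). The matricellular protein Ccn1 rose 5.43-fold, Myc by 2.25 and Jun by 1.44. Without control 1 the rises numbered 6. AP-1 binds the letters TGACTCA, which were looked for on both strands in windows that run from 250 bases before to 50 after each RefSeq start (GRCr8). They overlap in part with the antioxidant response element TGACNNNGC. The AP-1 letters were in 5.25% of the windows of 972 genes that rose, 4.49% of 557 that fell and 3.48% of 9761 genes tested, and in 4.53% of all 27457 windows. Among the genes of the naming rule they were in the windows of Mmp7, Gpnmb, Srxn1 and Glrx, which rose, and also of Acot5, Neu1 and Hbb, which fell. The windows of 3 of the risers are shown so that a reader can see where the letters lie, in capitals. Mmp7 is at chr8:13132793-13133092 on the plus strand, Gpnmb at chr4:79340878-79341177 on the plus strand and Srxn1 at chr3:161064562-161064861 on the plus strand. All 4 runs lie on the opposite strand and so read TGAGTCA here. The run begins 80 bases before the start in Mmp7 and 87 in Gpnmb, and Srxn1 has runs 62 and 5 bases before it.
Mmp7: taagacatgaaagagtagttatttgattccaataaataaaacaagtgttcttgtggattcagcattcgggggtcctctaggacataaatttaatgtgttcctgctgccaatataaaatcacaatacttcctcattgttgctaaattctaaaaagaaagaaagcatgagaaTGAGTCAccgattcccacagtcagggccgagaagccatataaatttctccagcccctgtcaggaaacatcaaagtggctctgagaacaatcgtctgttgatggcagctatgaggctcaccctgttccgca
Gpnmb: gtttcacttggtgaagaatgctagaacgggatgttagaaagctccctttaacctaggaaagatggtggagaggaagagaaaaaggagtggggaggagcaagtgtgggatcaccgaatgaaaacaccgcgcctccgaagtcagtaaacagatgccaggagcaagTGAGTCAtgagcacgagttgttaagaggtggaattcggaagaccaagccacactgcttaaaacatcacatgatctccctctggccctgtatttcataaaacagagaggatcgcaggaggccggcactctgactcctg
Srxn1: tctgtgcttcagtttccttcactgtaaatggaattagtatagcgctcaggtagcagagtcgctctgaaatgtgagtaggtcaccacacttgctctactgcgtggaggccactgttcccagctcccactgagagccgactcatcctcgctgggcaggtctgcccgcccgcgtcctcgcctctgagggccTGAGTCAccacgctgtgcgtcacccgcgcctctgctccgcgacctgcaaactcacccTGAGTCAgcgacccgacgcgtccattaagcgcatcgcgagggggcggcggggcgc

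Macrophage genes were higher. Of 25 members 17 rose (68%, against 9.33% over all genes) and 2 fell (8%, against 6.52%), with a median of 1.73. The list's summed signal was 298 to 345 in controls and 395 to 549 in treated cortex. Gpnmb and Siglec1, the latter a sialic acid receptor of macrophages, were not well above background on either control array and were at least 10.1-fold and 5.37-fold higher. Trem2, a lipid receptor, read -1.82 and -1.11 in controls and 2.26, 3.16 and 3.21 in treated cortex, 20.2-fold higher (adjusted p = 0.00018). The pan-macrophage markers Cd68 and C1qa rose by 1.73 and 2.4, while the receptor Csf1r (1.43) was not called. The falls were the chemokine receptor Cx3cr1 (-1.46; adjusted p = 0.049) and the integrin Itgam (-3.2; adjusted p = 0.045). Itgam was uneven, at 4.14, -0.47 and 0.15 against 4 and 4.94, and its other probe differed by 1.07 in the opposite direction. Without control 1 the rises numbered 11, and neither fall was called without either control, treated 2 or treated 3. Of 41 lysosomal genes, which overlap with this list in Gpnmb, 6 rose (14.6%, against 9.33% over all genes) and 2 fell (4.9%, against 6.52%). The protease Ctss rose 3.45-fold, and the sialidase Neu1 fell from 1.38 and 1.23 to -0.08, -0.04 and -0.24. Without control 1, 3 lysosomal genes rose.

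Other leukocyte lists gave few calls. The summed signal of the lymphocyte list was 185 to 217 in controls and 96.9 to 131 in treated cortex, and that of the neutrophil and mast cell list 8.41 to 9.2 and 11 to 16.8. Among 13 lymphocyte genes Jchain, made by plasma cells, rose and Pax5 fell. That is 7.7% in each direction, against 9.33% higher and 6.52% lower over all genes. Jchain was uneven at 0.69, 3.03 and 2.54 against -0.73 and 0.16 (adjusted p = 0.021), and it missed the threshold when any array other than treated 1 was left out (0.053 to 0.17). The Pax5 probe was bright at 7.02 and 5.97 in controls and 4.4, 4.89 and 5.15 in treated cortex, although the B cell marker Cd79a was at background, and its call was lost without control 1 (0.14). The T cell gene Cd3e was below the limit on both control arrays and above it on 2 treated arrays. Ncf1, a subunit of the phagocyte oxidase, was the call among 7 neutrophil and mast cell genes (1.19; adjusted p = 0.033) and was lost without either control (0.16 and 0.14) or treated 3 (0.13). The Ncf1 call is 14.3% of its list, against 9.33% higher over all genes. Of 9 genes of MHC class II presentation, Ctss and Ifi30 rose (22.2%, against 9.33%), and Cd74 (0.73) and RT1-Da (0.96) were not called. The Ifi30 call (adjusted p = 0.04) was lost when any array other than treated 1 was left out (0.087 to 0.21).

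Cytokines and chemokines rose in 17 of 35 cases (48.6%, against 9.33% over all genes), with 2 lower (5.7%, against 6.52%) and a median of 1.36. The IL-10 family members Il24 and Il19 were at least 43.7-fold and 8.77-fold higher. Socs3, a feedback inhibitor of cytokine receptors, read -2.44 and -2.24 in controls and 2.48, 1.92 and 2.62 in treated cortex (25.7-fold; adjusted p = 4.9e-05). The monocyte attractant Ccl2 was at least 6.53-fold higher, and Osm (-1.82) and Il15 (-1.09) were lower. Neither fall was called without control 1. The rises numbered 9 without control 1 and 10 without control 2 or treated 3.

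Complement and acute-phase genes were the most frequent risers of the 36 lists, at 22 of 27 (81.5%) with none lower and a median of 2.4. The classical pathway gene C4b rose from 0.64 and 0.55 to 6.14, 6.4 and 5.22, or 40.1-fold, and C4a from 0.24 and 0.11 to 4.61, 4.99 and 4.22, or 21.6-fold. C2 was at least 8.46-fold higher, the central component C3 rose by 3.09 and the fibrinogen chain Fgb by 3.05. C1qa, C1qb and C1qc stand in this list and in that of macrophages, and what macrophage number contributes to the rise was not tested.

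Interferon-response and MHC class I loading genes rose in 18 of 31 cases (58.1%, against 9.33% over all genes), with none lower and a median of 1.27. The immunoproteasome subunit Psmb8 read 2.38 and 2.49 in controls and 4.82, 5.25 and 5.59 in treated cortex (6.92-fold; adjusted p = 9.8e-05), with Psmb9 and Psmb10 3.71-fold and 4.75-fold higher. The transporter Tap2 (2.59) and the regulator Irf1 (2.46) rose with them. The interferon-induced Mx1 (0.82) and Rsad2 (0.23) were not called. The rises numbered 8 without control 1 and 10 without control 2. The core of the interferon-stimulated response element, GAAA followed by any 2 bases and GAAA again, was found on either strand in 5.97% of the same windows of genes that rose, 2.87% of those that fell, 3.15% of genes tested and 3.77% of all windows. Of the genes of the naming rule, Ctss, Ncf1, Il19, Psmb8 and Psmb10 hold it. It is shown in capitals for Psmb10 (chr19:50743243-50743542, minus strand), with runs 73 and 17 bases before the start, and for Ctss (chr2:185775146-185775445, plus strand), with a run 36 bases before it.
Psmb10: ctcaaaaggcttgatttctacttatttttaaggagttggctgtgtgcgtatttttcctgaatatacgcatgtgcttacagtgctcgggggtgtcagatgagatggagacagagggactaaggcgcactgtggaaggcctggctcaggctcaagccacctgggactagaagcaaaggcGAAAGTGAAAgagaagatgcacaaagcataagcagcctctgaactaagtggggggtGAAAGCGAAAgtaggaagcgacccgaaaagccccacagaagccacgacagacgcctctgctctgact
Ctss: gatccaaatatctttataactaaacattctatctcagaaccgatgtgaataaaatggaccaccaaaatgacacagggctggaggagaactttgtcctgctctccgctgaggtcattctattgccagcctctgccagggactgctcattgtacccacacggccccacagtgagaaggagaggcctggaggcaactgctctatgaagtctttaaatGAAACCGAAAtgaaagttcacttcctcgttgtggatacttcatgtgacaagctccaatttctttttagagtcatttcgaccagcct

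For comparison, the antioxidant response element letters TGACNNNGC were in 12.3% of windows of genes that rose, 13.1% of those that fell, 14.4% of genes tested and 12.2% of all. The Gpx2 window (chr6:101229984-101230283, minus strand) holds them on the opposite strand 13 bases before the start, in capitals. Of the other genes of the naming rule, Ncf1 and Cdkn1a, which rose, Mt1, which fell, and Psmd3, which was not called, hold them too. The motifs above were picked from a larger set searched in the same windows. The cAMP response element (CRE) was in 1.85% of windows of risers, 2.33% of fallers and 2.98% of genes tested. In that order the shares were 2.37%, 1.44% and 1.65% for NF-kB and 1.44%, 0.18% and 1.28% for STAT. Those for C/EBP, DR1 and HNF1 were at most 0.236%. Differences between shares were not tested.
Gpx2: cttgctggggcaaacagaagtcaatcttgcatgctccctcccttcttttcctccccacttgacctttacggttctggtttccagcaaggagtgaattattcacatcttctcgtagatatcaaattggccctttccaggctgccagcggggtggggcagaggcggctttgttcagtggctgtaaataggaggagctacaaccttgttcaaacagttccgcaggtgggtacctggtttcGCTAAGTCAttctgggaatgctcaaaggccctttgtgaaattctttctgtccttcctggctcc

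Damage-response genes rose in part. Of 26 target genes of the DNA damage response 10 rose (38.5%, against 9.33% over all genes) and 1 fell (3.8%, against 6.52%), with a median of 0.5. The cell-cycle inhibitor Cdkn1a, which encodes p21, read -1.47 and -1.66 in controls and 1.63, 1.78 and 2.14 in treated cortex, a rise of 3.42 ± 0.37 (SE; adjusted p = 6e-05). The death factor Pmaip1 was at least 6.07-fold higher and the kinase Plk2 rose 6.57-fold. Bax (0.57) and Gadd45a (-0.1) were not called. The rises numbered 5 without either control and 6 without treated 2 or treated 3. Of 27 genes of homologous recombination and BRCA1 partners 2 rose, which is 7.4% against 9.33% over all genes, and the median was 0.19. Brca2 was at least 1.86-fold higher (adjusted p = 0.018). Only the 3-week BRCA1+/- group had Brca2 above background on all its arrays. The gene thus entered the test only through the group where it is high, and its call is a description. Brca2 missed the threshold without control 2 (0.25) or treated 3 (0.069). Bard1 (0.68), the partner of BRCA1 in its ubiquitin ligase, was not called.

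Cell-cycle genes were called higher in 6 of 41 cases (14.6%, against 9.33% over all genes), with none lower and a median of 0.77. The replication helicase subunits Mcm3 and Mcm5 rose by 2.38 and 1.52, and the cyclin Ccne1, dim in controls, was at least 1.58-fold higher. A second Mcm3 probe differed by -0.94 and a second Mcm5 probe by 0.6. The calls of Mcm3, Mcm5 and Ccne1 were lost under normexp background correction. Those of Mcm3 and Mcm5 were also lost with the median over probes, and that of Ccne1 with dim values at the detection limit. Mki67 (0.38), Top2a (0.1) and Ccnb1 (0) were not called. Without control 1 the rises numbered 1, and Mcm5 (0.13) and Ccne1 (0.096) were not among the calls. Without treated 1 or treated 3 they numbered 3. Mcm5 also missed the threshold without control 2 (0.075) or treated 3 (0.052).

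Junction and integrin genes rose in 9 of 32 cases (28.1%, against 9.33% over all genes) with 1 lower (3.1%, against 6.52%). The claudins Cldn4 and Cldn23 rose, by 2.69 and at least 4.52-fold, and Cdh6, a cadherin of the developing proximal tubule, from 1.81 and 1.55 to 4.91, 4.57 and 4.97 (8.77-fold; adjusted p = 0.00089). The rises numbered 3 without control 1, 5 without control 2 and 4 without treated 3. Cldn10, a paracellular channel of the thick limb and proximal tubule, fell by 1.14 (adjusted p = 0.023) and missed the threshold without either control (0.12 and 0.13) or treated 3 (0.096).

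In the other nephron segments and the glomerulus the calls were mostly falls. Of 26 collecting duct genes 7 fell (26.9%, against 6.52% over all genes), none rose and the median was -0.38. Those that fell were Atp6v1g3, Atp6v1c2, Atp6v0d2, Slc26a4, Slc4a9, Slc4a1 and Hmx2, most of them proton pump subunits or anion exchangers of intercalated cells, the acid-base cells of the duct. The pump subunit Atp6v1g3 read 7.17 and 7.12 in controls and 5.8, 5.54 and 5.66 after Fe-NTA (adjusted p = 0.0017), and the anion exchanger Slc26a4 read 0.25 and 0.42, then -0.87, -2.06 and -1.65. The principal cell genes Aqp2 (0.54), Aqp3 (0.41) and Scnn1a (0.03) were not called. The falls numbered 2 without either control and 3 without treated 2 or treated 3, and Hmx2 (0.071, without control 1) and Slc26a4 (0.06, without control 2) missed the threshold. Of 29 thick limb and distal genes 4 fell (13.8%, against 6.52% over all genes). Fxyd2, a regulator of the sodium pump, fell from 8.34 and 8.27 to 7.09, 7.09 and 6.55 (adjusted p = 0.0033). The calcium-binding protein S100g fell by 2.62 and Egf by 2.27, and Cldn10 was the other fall. Umod (-0.09) and Slc12a1 (0.62) were not called. The falls numbered 2 without control 1 or treated 3, 1 without control 2 and 7, with 3 rises, without the third wild-type 1-week array; S100g missed the threshold without control 2 (0.068). Of 25 podocyte and parietal genes 3 fell (12%, against 6.52% over all genes) and 1 rose (4%, against 9.33%). The rise was not called when any of the 5 arrays was left out. The basement membrane collagens Col4a3 and Col4a4 fell by 2.7 and 2.87, from 2.55 and 2.25 to -0.55, -0.11 and -0.25 in the first case. The slit diaphragm gene Nphs1 (-0.65) and Wt1 (-1.05) were not called. Without the third wild-type 1-week array, 7 podocyte genes fell and 5 rose.

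Endothelial genes gave 2 rises of 26 (7.7%, against 9.33% of all genes) and no fall, and neither rise was called without control 2. Ramp2, a receptor partner, and Lyve1, a marker of lymphatic endothelium, were at least 1.79-fold and 2.12-fold higher. Both were above background on all arrays of no group but the 3-week BRCA1+/- one. They entered the test only through the group where they are high, and their calls are a description. Pecam1 (-0.37) and Kdr (-0.99) were not called. Ramp2 missed the threshold without control 2 (0.13), and Lyve1 without control 1 (0.052), control 2 (0.13) or treated 3 (0.053), and 3 endothelial genes were called lower without the third wild-type 1-week array. Among 16 genes of smooth muscle, pericytes and the juxtaglomerular cells 2 rose (12.5%, against 9.33% of all genes) and 1 fell (6.2%, against 6.52%). Rgs5, a pericyte gene, rose by 1.9 and missed the threshold without control 2 (0.085), and 4 genes of the list rose without the third wild-type 1-week array.

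Blood genes were lower. Of 14 erythroid genes 7 fell (50%, against 6.52% over all genes), none rose and the median was -1.85. The summed signal was 2190 to 3000 in controls and 434 to 688 in treated cortex. Hbb read 4.31 and 4.77 in controls and 1.49, 2.32 and 1.82 in treated cortex (-2.66 ± 0.74 SE; adjusted p = 0.026), and Hba-a3 fell by 3.62 (adjusted p = 0.012). The haem synthesis enzyme of red cells, Alas2 (-1.97), was not called. These calls depend on each group's arrays: without control 1, control 2 or treated 3 none of the 14 was called, and without treated 1 the count was 3. Hbb (0.1 and 0.16) and Hba-a3 (0.065 and 0.093) had these adjusted p-values without control 1 and control 2, in that order. Slc4a1 stands in this list and in that of the collecting duct. Among 8 adrenal and adipose genes 1 was called higher (12.5%, against 9.33% over all genes). The complement protease Cfd, also secreted by fat cells, rose by 3.94, with treated arrays at 0.76, 1.24 and 2.83. Its call (adjusted p = 0.014) was lost without either control (0.092 and 0.081) or treated 3 (0.059), while Adipoq differed by 0.1 and was not called.

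The 3-week cortex was next set against BRCA1+/- cortex after 1 week of Fe-NTA, a contrast in which time, age and total dose move together and cannot be told apart. Of 16007 genes 49 differed (0.306%): 30 were higher at 3 weeks and 19 lower. The genes higher at 3 weeks include proteases, complement proteins and plasma proteins, and 7 of the 19 lower genes stand in the cell-cycle list, the only one of the 36 lists with members lower at 3 weeks than at 1 week. Both comparisons with control share the 2 control arrays, so each contrast is given by its own values. Mmp7 read -1.64, -4.14 and -3.42 at 1 week and 1.77, 1.99 and 1.95 at 3 weeks, a difference of 4.97 ± 0.73 (SE; adjusted p = 0.011). It was above the background limit on only 1 of the 1-week arrays, so the size of this difference rests in part on dim values. The secretin receptor Sctr and the citrate carrier Slc13a5 were at least 2.91-fold and 3.73-fold higher, and the troponin Tnni1 at least 3.11-fold. The protease inhibitor A2m was higher by 3.46 and Pitpnm3 by 3.19. C4a stood at 2.01, 2.39 and 2.29 at 1 week and 2.37 ± 0.28 (SE) higher at 3 weeks (adjusted p = 0.0025). C4b, C2, Tf, Ltbp2 and Car3 were higher at 3 weeks than at 1 week by 2.81, 1.4, 2.83, 2.47 and 2.58. The globin gene Hbb-bs read 7.53 and 7.87 in controls, 2.88, 1.84 and -0.04 at 1 week and 5.05, 5.79 and 5.86 at 3 weeks, so the 3-week level lay between the others.

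Of 41 cell-cycle genes 28 were higher than control at 1 week (median 2.23), when 4.25% of all genes were called higher, and 6 at 3 weeks (median 0.77), when 9.33% were. Between these times 7 of the 41 were lower at 3 weeks, against 0.119% of all genes. The mitotic kinase Cdk1 read -2.24 and -1.78 in controls, 1.72, 0.4 and 2.04 at 1 week and -1.17, -1.32 and -0.85 at 3 weeks, which is 2.5 ± 0.34 (SE) lower than at 1 week on the log2 scale (adjusted p = 0.0062). The cyclin Ccna2 fell by 2.43 between these times, the spindle protein Prc1 by 2.43, the nucleotide reductase subunit Rrm2 by 2.42, Ckap2 by 2.34 and the kinesin Kif20a by 2.2. Cdkn3 was above background on all 1-week arrays and on none at 3 weeks, at least 3.54-fold lower. The cytokine receptor Il31ra was at least 3.05-fold lower at 3 weeks and also fell against control, from -1.4 and -0.95 to below background. The 49 calls are few and hang on single arrays: the count was 15 without the third 1-week array, 75 and 83 without the first and second, 22, 16 and 15 without treated 1, 2 and 3, and 219 without the third wild-type 1-week array. Sctr, Slc13a5, Cdk1, C4a and Ltbp2 were called without each of the 6 arrays in turn, and Mmp7 missed the threshold only without the third 1-week array (4.79; adjusted p = 0.053). The others named lost the call without at least 1 array, at adjusted p from 0.051 to 0.18. Sctr, Slc13a5, Tnni1 and Mmp7 were above background on all arrays of no group but the 3-week BRCA1+/- one, so they entered the test only through the group where they are high, and their calls are a description.

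**Figure D4:**
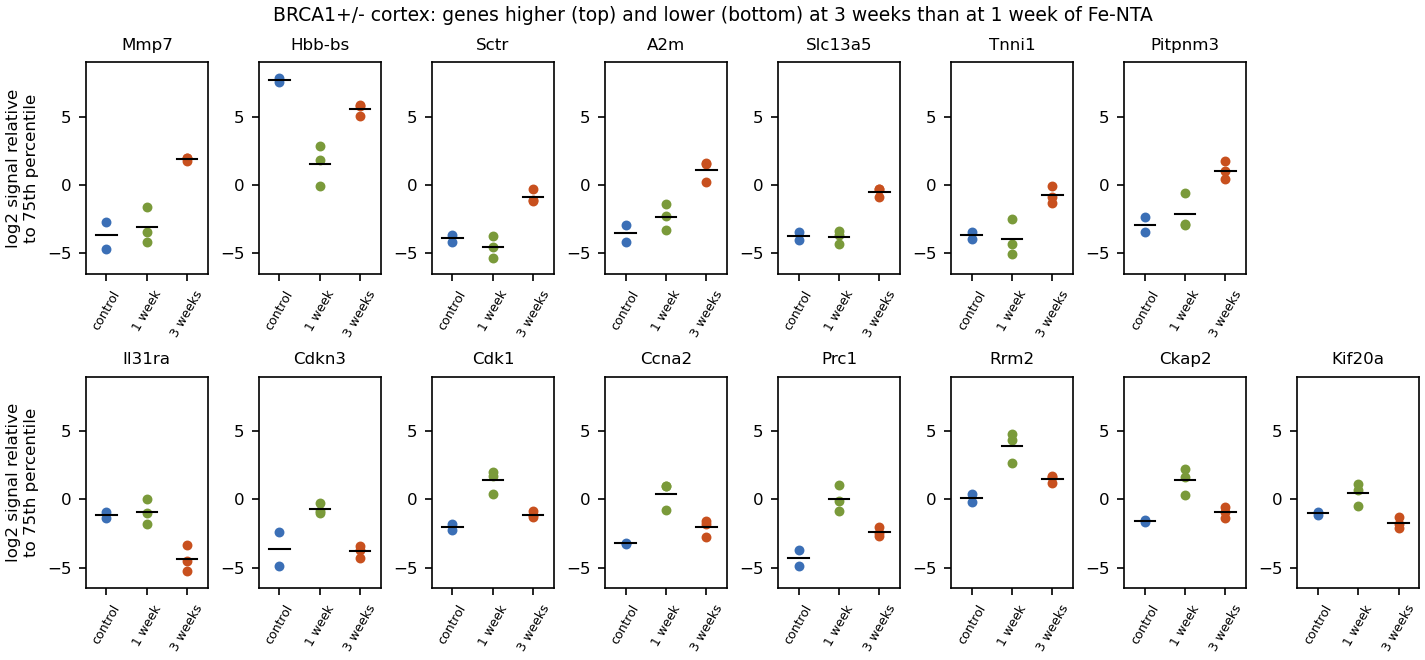
Level of 7 genes most raised (top row) and the 8 most lowered (bottom row) at 3 weeks against 1 week of Fe-NTA in BRCA1+/- cortex, by group (x axis: 2 control arrays, 3 arrays at 1 week, 3 at 3 weeks), as log2 signal relative to the array's 75th percentile (y axis). Circles are arrays and bars group means. Mmp7 is low at 1 week and high at 3 weeks, and Cdk1 is high at 1 week and nearer to control at 3 weeks.

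The last question was whether the 3-week change differed from that in wild-type rats, tested as the interaction of genotype and treatment over 10 arrays. No gene passed an adjusted p under 0.05 in limma (0 of 16007), and 757 had an unadjusted p under 0.05, where the same contrast under normexp background correction called 1 gene. Car3 had the smallest p: it rose by 6.79 in BRCA1+/- cortex and by 1.94 in wild type (2.61 and 1.86 to 4.6, 3.73 and 4.19), an interaction of 4.85 ± 0.78 (SE; adjusted p = 0.27). Wild-type cortex had 2290 calls of its own (14.3%), from arrays not shared with the BRCA1+/- contrast. Both contrasts use the same estimate of each gene's spread, so their calls are not independent. The 1372 genes called in both are 54.1% of the BRCA1+/- calls and 59.9% of the wild-type calls, and 889 of them were higher in both genotypes, 482 lower in both and 1 opposite. Over all genes the log2 differences of the genotypes had a Pearson r of 0.8, which is across genes and not across animals. Of the 36 lists, 3 had medians of opposite direction on every treated array. The treated arrays of a genotype are all set against the same control mean, so their agreement is not independent. The collecting duct median was -0.38 in BRCA1+/- and 0.59 in wild type, that of the thick limb and distal tubule -0.34 and 0.41, and that of podocytes -0.42 and 0.2. No member of these lists passed the interaction test, and 8 of 26, 9 of 29 and 1 of 25 members had an unadjusted interaction p under 0.05. Mmp7 was below the background limit on every control array of both genotypes. After 3 weeks it was above the limit on 3 of 3 BRCA1+/- arrays and 1 of 3 wild-type arrays, and its interaction was not called.

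**Figure D5:**
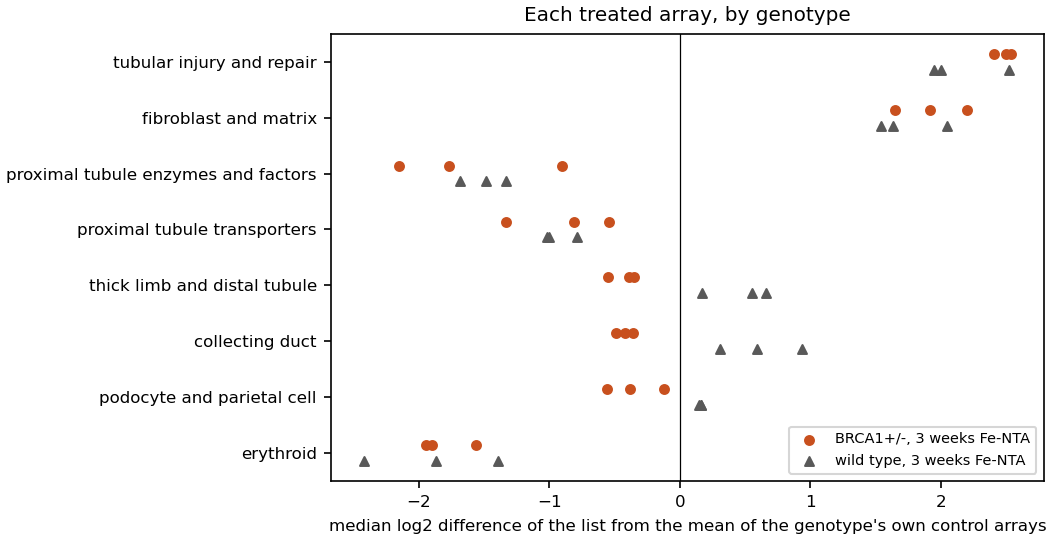
Median log2 difference of 8 gene lists from the mean of the genotype's own 2 control arrays (x axis) for each of the 3 arrays after 3 weeks of Fe-NTA in BRCA1+/- (circles) and wild-type (triangles) cortex. Injury, matrix and proximal tubule lists lie on the same side in both genotypes, and the thick limb, collecting duct and podocyte lists lie on opposite sides of 0.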

How the data were processed

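RNA from kidney cortex was hybridised to one-colour (Cy3) Agilent arrays, read with Agilent Feature Extraction 10.7 per the submitters' processing notes. The authors deposited each array's scanner output, whose processed signals are background-corrected intensity values per the file headers, and a table of log2 values. The authors' log2 values had a 75th percentile of 0 in each column and a correlation of 1 with the values computed here, so they served as an alternative. Control spots and outlier spots were left out, spots of a probe were averaged, and log2 intensity was set relative to the array's 75th percentile. Probes entered the fit if some group had them well above background on all its arrays (20431 of 45598 probes), and the brightest probe stood for a gene. Gene names came from the files, updated through RefSeq accessions for 21229 probes, of which 2233 changed, while 24230 kept the file's name.

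The fit used limma 3.58.1 (R 4.3.3) on 6 group means over all 16 arrays (10 residual and 4.87 prior degrees of freedom), with Benjamini-Hochberg adjustment over 16007 genes and a threshold of 0.05, and all adjusted p-values in the text are from this two-sided test. For a gene not well above background on any array of a group, "at least N-fold" sets the bright group's mean against the mean of, per array, the higher of the lowest signal well above background and the gene's own. On simulated data with 200 of 16007 genes changed, the test of 3 weeks against control recovered 7% of changes of 1 and 68% of changes of 2 on the log2 scale and called 5 unchanged genes. Lists were described by counts and medians, with no test of a list.

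Named were the 12 largest rises and 12 largest falls with a gene symbol and groups that did not overlap, up to 3 called members of each list by smallest p, and 8 genes in each direction for 3 weeks against 1 week. Some named genes are not reported here. Other list members and markers were named after their values were seen. The members and lists were chosen with earlier results of these data known. Promoter windows are those of RefSeq for GRCr8, matched by symbol for 9761 genes tested. Samples were not treated as paired by replicate number. Alternatives covered background correction, normalization, the filter on dim probes, the rule for several probes, slide, and leaving out each array. When a control array is left out, the remaining one is assumed to vary like the other groups.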

Additional observations from a re-analysis of the deposited data

Results flagged for a closer look

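These results were flagged for a difference between groups, which was tested for the first set and not for the second. The first set differed between 3 and 1 week of Fe-NTA in BRCA1+/- cortex in limma, at an adjusted p under 0.05. Higher at 3 weeks on the log2 scale were Mmp7 (4.97), Hbb-bs (4.01), Sctr (3.68), A2m (3.46), Slc13a5 (3.3), Tnni1 (3.2), Pitpnm3 (3.19), Tf (2.83), C4b (2.81), Car3 (2.58), Ltbp2 (2.47), C4a (2.37) and C2 (1.4). Lower at 3 weeks were Kif20a (-2.2), Ckap2 (-2.34), Rrm2 (-2.42), Ccna2 (-2.43), Prc1 (-2.43), Cdk1 (-2.5), Cdkn3 (-3.08) and Il31ra (-3.42). Where a gene was not above background at 1 of the times, these fitted differences depend on its dim values and are no bound.

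The second set had list medians of opposite direction in the 2 genotypes on every treated array, and the difference between the list medians was not tested. The treated arrays of a genotype are all set against the same control mean, so their agreement is not independent. On the 3 BRCA1+/- arrays the thick limb and distal list (-0.34 in the fit) had medians of -0.55, -0.35 and -0.39, against 0.17, 0.66 and 0.55 in wild type. The collecting duct list (-0.38) had medians of -0.49, -0.36 and -0.42, against 0.31, 0.59 and 0.94. The podocyte list (-0.42) had medians of -0.38, -0.56 and -0.12, against 0.16, 0.16 and 0.15.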

How the results depend on the processing

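The count of 2538 genes for 3 weeks against control was 1558 with normexp background correction (846 higher, 712 lower), 1071 with no filter on dim probes, 3877 with a fit to the groups compared alone, 251 within slide 1 and 279 within slide 2, and it ranged from 812 to 1979 when 1 of the 5 arrays was left out. The count of 49 for 3 weeks against 1 week was 29 with normexp, 19 with quantile normalization, 12 with no filter, 22 with a stricter filter, 99 with dim values at the detection limit, 25 with the groups compared alone, 2 within slide 1, 0 within slide 2, and 15 to 83 when 1 array was left out. The interaction, with 0 calls, had 1 with normexp, 1 with dim values raised to the limit and 1 within slide 1. Without the third wild-type 1-week array, an alternative chosen after seeing the data, the counts were 4717, 219 and 0. Brca1, at 0.86, was -0.03 with normexp, -0.77 within slide 1, and -0.84 to 2.56 when 1 array was left out. Deviations of same-numbered control and treated arrays from their group means had correlations of -0.16 and 0.02. With 2 control arrays the control deviations mirror each other, so these values cannot decide whether replicate numbers pair the samples. The replicate block gave 2593, 72 and 0 calls. Quantile normalization, the stricter filter, the detection limit, the median over probes, the authors' value table and slide as a block gave 2405, 1842, 2777, 2743, 2535 and 2639 calls for 3 weeks against control. Of the 36 list medians 28 kept their sign under all 18 settings, including all 16 over 0.5 in size. In the simulation, with 200 of 16007 genes changed, the test recovered 7% of changes of 1 on the log2 scale. With 2538 calls in the data the adjustment sets a looser cutoff, so that share need not hold for them. How many changes of this size were missed was not tested.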
